A study of Macaca fascicularis and Macaca mulatta with 24 samples.

Results

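TatNR2B9c was compared with placebo in the left, non-ischemic cortex of cynomolgus macaques 6 h after a right-sided middle cerebral artery occlusion. The rule was the array title: left hemisphere, 6 h, with TatNR2B9c (3 arrays) or placebo (3 arrays), which gave 6 of the 24 arrays in the series. The treated animals received 2.6 mg/kg of the peptide by vein 5 min after the artery was occluded, and the placebo animals received placebo on the same schedule. Every animal, placebo included, had therefore had a stroke in the opposite hemisphere, and no cortex from an animal without a stroke was analysed here. Each group held 3 animals, per the labels, and 3 arrays of frozen left cortical biopsies. On every array the cortical cDNA was labelled with Cy5 and a rhesus Universal Reference RNA with Cy3, so that no dye was swapped. Values below are log2 of Cy5 over Cy3, on which 0 means a signal equal to the reference, and a difference is always TatNR2B9c minus placebo.

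NR2B (gene GRIN2B) is a subunit of the NMDA receptor, the glutamate-gated calcium channel of excitatory synapses. Its tail binds PSD-95 (gene DLG4), a scaffold protein that also holds neuronal nitric oxide synthase (gene NOS1) and so couples calcium entry to nitric oxide production. TatNR2B9c carries the end of the NR2B tail, fused to a cell-penetrating sequence of the HIV Tat protein, and competes for that binding. It acts on a protein contact, and the arrays measure RNA.

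The treatments differed in how their arrays were made as well as in the drug. No slide or scan day held arrays of both treatments. The placebo 6 h and the TatNR2B9c arrays were also read with different versions of the extraction software, per the file headers. Treatment and scan campaign cannot be told apart in any result below. The TatNR2B9c arrays were also less alike. Of 20217 probes, those well above background in the cortical channel (Cy5) made up 86.1%, 81.9% and 93.3% on placebo arrays 1, 2 and 3, and 97.7%, 76.9% and 53% on TatNR2B9c arrays 1, 2 and 3. The mean was 87.1% ± 5.8 (SD, n = 3) against 75.9% ± 22.4 (n = 3), a difference of −11.2 percentage points (two-sided exact permutation p = 0.5, where 0.1 is the smallest that 3 against 3 arrays allow). Without TatNR2B9c array 3 this difference turned to 0.23 points. The SD of log2 ratios over 15758 genes was 1.57, 1.5 and 1.67 on the placebo arrays and 1.08, 1.39 and 0.97 on the TatNR2B9c arrays, so that every placebo array was wider than every TatNR2B9c array. Over the genes, placebo arrays correlated with each other at 0.96 to 0.97 and TatNR2B9c arrays at 0.83 to 0.90.

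**Figure D1:**
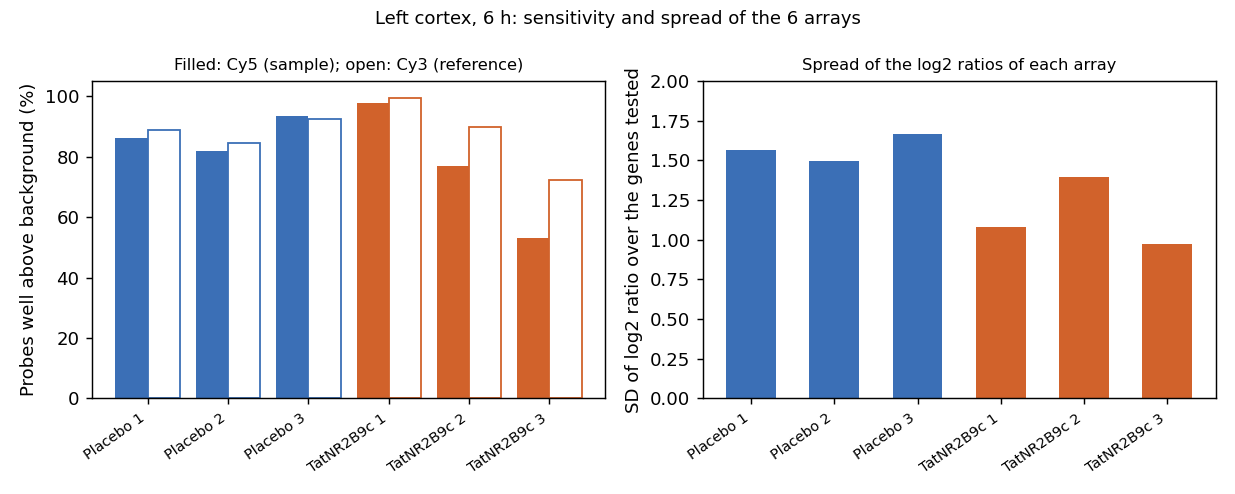
Left panel: percent of probes well above background on each of the 6 left 6 h arrays, in Cy5 (cortex, filled bars) and Cy3 (reference, open bars). Right panel: SD of the log2 ratios of each array, which lies between 1.5 and 1.67 on placebo arrays and between 0.97 and 1.39 on TatNR2B9c arrays.

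Because of this, each gene was read in 3 ways, all with limma fits over the 24 arrays at an adjusted p under 0.05. The ratio fit was the main test. A fit on Cy5 alone left the reference out. Another fit, added after the data were seen, used ratios scaled to the same SD on every array. Below, "rose" and "fell" are kept for genes that passed with 1 sign in the ratio and in Cy5 alone, and it is stated where the equal-SD fit also passed.

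In the ratio fit 24.2% of the 15758 genes passed, 1677 higher (10.6%) and 2142 lower (13.6%) under TatNR2B9c, around a median difference over all genes of −0.07. In Cy5 alone 787 genes were higher (4.99%) and 1804 lower (11.4%), around a median of −0.12. In both readings with the same sign 742 genes passed (4.71%). Of these 172 rose (1.09%) and 570 fell (3.62%), and 63 and 220 of them differed by at least 2-fold. The equal-SD fit alone gave 307 higher (1.95%) and 353 lower genes (2.24%). In all of these readings together 205 genes passed (1.3%), 56 higher (0.355%) and 149 lower (0.946%), and 0 of the 742 changed sign at equal SD. The ratio sign turned for 23 of the 742 with each array only centred on its median, and for 35 with limma's between-array scaling to equal spread. The reference channel read alone, which carries no treatment, gave 400 genes (2.54%), and 23 of the 742 passed there too. Of 3819 genes that passed in the ratio, 57 passed in Cy5 alone with the opposite sign. Fitted on the 6 arrays alone, limma called 3 genes in the ratio, 1 in Cy5 and 0 in both, with 788 past an unadjusted p of 0.05 in both. The calls above therefore rest on the spread taken from all 24 arrays. On the extraction software's own processed ratios 5 genes passed in both readings (ANKRD5, ELF5, HBB, HBQ1 and SOST, the last chosen for naming after its value was seen). Leaving out 1 array moved the 742 to 237, 356 or 347 without placebo array 1, 2 or 3, and to 296, 1981 or 981 without TatNR2B9c array 1, 2 or 3. With each array only centred on its median, in place of the loess fit, the split moved to 598 higher and 2379 lower in the ratio and to 37 and 740 in both readings. With Cy5 scaled to its median it was 852 and 1181 in both readings. Of 63 named genes that passed in the ratio, 39 also passed without any 1 of the 6 arrays, and for the other 24 the arrays concerned are given beside the gene.

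The direction in the ratio followed the level in the placebo arrays. Among the 3151 genes of lowest placebo ratio, 1116 were higher and 0 lower under TatNR2B9c, and among the 3152 of highest placebo ratio, 2 were higher and 1334 lower. Over genes, the ratio difference correlated with the placebo level at r = −0.81. These measures share the placebo arrays, which also had the wider spread. The correlation was −0.14 with the Cy5 difference and −0.29 with the equal-SD difference. The differences read in Cy5 and in Cy3 correlated at 0.80, although Cy3 held the same reference RNA in both groups. The differences in the ratio and in Cy5 correlated at 0.40. All of these correlations are over 15758 genes within the same 6 arrays.

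**Figure D2:**
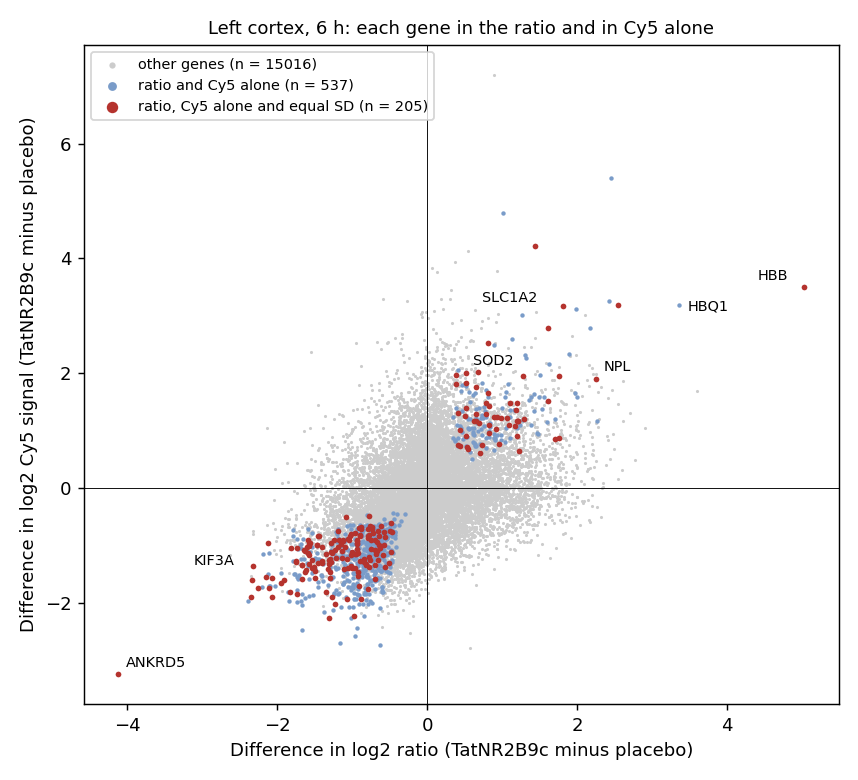
Each point is 1 of 15758 genes, with its TatNR2B9c minus placebo difference in log2 ratio on the x axis and in log2 Cy5 signal on the y axis. The genes that passed in both lie in the upper right (172) and lower left (570) corners, and HBB and ANKRD5 stand farthest out along the ratio axis.

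The largest rises were in globin transcripts. HBB, the beta chain of hemoglobin, read −1.12, −2.59 and −3.69 on placebo arrays 1 to 3, and 2.90, 1.42 and 3.36 on TatNR2B9c arrays 1 to 3. All placebo arrays lay below the reference and all TatNR2B9c arrays above it. The difference was 5.03 ± 0.70 (SE, adjusted p = 0.000318), a 32.7-fold difference. In Cy5 alone HBB read 14.32, 13.48 and 12.39 against 17.12, 16.38 and 17.20, a difference of 3.50 (adjusted p = 0.00019), while its reference signal differed by −0.87 (adjusted p = 0.348). HBQ1, the theta globin, read −1.09, −1.73 and −2.59 against 2.25, 0.76 and 1.63, again without overlap. Its difference was 3.35 ± 0.48 (adjusted p = 0.000335), but 0.0558 was its adjusted p at equal SD. Of its further probes, one differed by 3.35 and the other by −0.20. On the left side HBB averaged −2.47 in the placebo group at 6 h and −0.30 in the placebo group at 1 h, against 2.56 and 1.03 under TatNR2B9c, so that the 6 h placebo group had the lowest mean of the 4 left groups.

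NPL, CAMP and SLC11A1 were also among the 12 largest rises with a symbol, unevenly between arrays. CAMP, a neutrophil antimicrobial peptide, read −1.19, −1.61 and −2.15 against 0.53, −1.0 and 2.03, a difference of 2.17 (adjusted p = 0.00871). The groups did not overlap in the ratio, but TatNR2B9c array 2 lay within 0.2 of placebo array 1. In Cy5 alone that TatNR2B9c array read 6.93, inside the placebo range of 6.65 to 7.20 and near the low end of the signal range. Without TatNR2B9c array 3 the ratio difference was 1.41 (adjusted p = 0.0552). SLC11A1, a metal transporter of phagosomes, read −2.06, −1.91 and −2.55 against 0.44, −2.19 and 0.91 (difference 1.9, adjusted p = 0.0314). Here array 2 lay inside the placebo range and arrays 1 and 3 far above it. The call was lost without placebo array 1 or 3 or TatNR2B9c array 1 or 3 (difference 1.30 to 1.95, highest adjusted p = 0.164), and without array 2 the difference was 2.85. NPL, an enzyme that cleaves sialic acid, read −2.95, −2.60 and −3.03 against 0.32, −1.93 and −0.21 (difference 2.26, adjusted p = 0.00288) and also passed at equal SD. In Cy5 alone NPL read 6.79 on TatNR2B9c array 2, inside the placebo range of 6.68 to 7.03. MMP9, a matrix protease of neutrophils, was higher by 2.61 in the ratio (adjusted p = 0.00434) but missed in Cy5 alone (1.86, adjusted p = 0.0554).

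Of 17 measured neutrophil and red cell markers, 9 were higher in the ratio (52.9%, beside 10.6% of all genes) and none lower. In both readings 3 of them rose (17.6%, beside 1.09%). In the ratio 16 of the 17 had a positive difference, beside 6959 of all 15758 genes. The median difference of the list was 0.67 in the ratio, 0.84 in Cy5 and 0.54 at equal SD, beside −0.07, −0.12 and −0.08 over all genes. The list's median log2 ratio was −0.98, −0.80 and −1.28 on the placebo arrays and 0.11, −0.60 and 0.26 on the TatNR2B9c arrays. Its median in Cy5 was 7.17, 7.11 and 7.19 against 9.91, 7.21 and 8.73, so that TatNR2B9c array 2 lay close to the placebo arrays. All 17 were well above background in Cy5 on at least 1 array of each group. ALAS2, the heme synthesis enzyme of red cell precursors, was higher in the ratio by 1.68 (adjusted p = 0.00302) and differed by 0.59 in Cy5 (adjusted p = 0.319). The biopsies were bulk tissue, in which more cells of a type and more RNA per cell cannot be told apart. How much blood each biopsy held was not measured, and its part in the other results was not tested.

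Of 29 measured inflammatory cytokines, chemokines and NF-kB targets, 4 were higher in the ratio (13.8%, beside 10.6% of all genes) and none lower, and CXCL10 alone rose in both (3.45%, beside 1.09%). IL1RAP, the co-receptor of interleukin 1, read −4.26, −3.81 and −4.60 against −1.31, −3.44 and −1.12. The groups did not overlap in the ratio, although TatNR2B9c array 2 came within 0.4 of the placebo range. In Cy5 alone that array read 7.15, inside the placebo range of 6.95 to 7.52. The ratio difference was 2.26 ± 0.79 (adjusted p = 0.0444). It did not pass at equal SD (1.44, adjusted p = 0.307) or when any 1 array other than TatNR2B9c array 2 was left out (1.85 to 2.47, highest adjusted p = 0.164). CXCL10, an interferon-inducible chemokine that attracts T cells, read −2.74, −2.04 and −2.91 against −0.33, −2.11 and −0.12. It rose by 1.71 (adjusted p = 0.0129), with array 2 inside the placebo range, and missed without placebo array 3 or TatNR2B9c array 1 or 3 (1.34 to 1.54, highest adjusted p = 0.073). CCL5, another chemokine for T cells, was higher by 1.31 in the ratio (adjusted p = 0.0346) with a Cy5 difference of 0.18 (adjusted p = 0.644). Of 33 interferon-stimulated genes and IRFs, 7 were higher in the ratio (21.2%) and 1 rose in both (3.03%). The gene that rose was not CXCL10, and it also passed at equal SD. The median of this list was 0.53 in the ratio and 0.04 in Cy5. FAS, a death receptor and p53 target, rose by 1.39 (adjusted p = 0.0206). CCL5 and FAS lost the ratio call without placebo array 1 or 3 or TatNR2B9c array 1 or 3, with differences of 0.88 to 1.39 and 1.08 to 1.36 and highest adjusted p of 0.179 and 0.116. Among 33 apoptosis genes and p53 targets 7 were higher (21.2%) and 3 lower (9.09%, beside 13.6% of all genes) in the ratio. In both readings 1 rose and 1 fell (3.03% each, beside 1.09% and 3.62%), and the gene that fell also passed at equal SD. BIK, a pro-apoptotic BCL2 family member, was higher by 1.94 in the ratio (adjusted p = 0.00126) and by 0.17 in Cy5 (adjusted p = 0.507).

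SOD2, the superoxide dismutase of mitochondria, rose. It read −1.28, −1.23 and −1.25 against −0.21, −0.06 and 0.36, so that the placebo arrays lay within 0.1 of each other and all TatNR2B9c arrays were clearly higher. The difference was 1.28 ± 0.21 (adjusted p = 0.000811), 1.95 in Cy5 (adjusted p = 0.000998) and 1.14 at equal SD (adjusted p = 0.0261). It was the 1 member of 25 NRF2 targets, antioxidant enzymes and metallothioneins that passed in the ratio (4%, beside 24.2% of all genes in either direction). Of 27 hypoxia-inducible targets 4 were higher (14.8%, beside 10.6% of all genes) and 2 lower (7.41%, beside 13.6%) in the ratio, and none passed in both. HMOX1, the heme oxygenase that breaks down heme, stood in that list and was not among the 25 genes counted with SOD2. It read −2.90, −3.42 and −3.17 against −0.71, −2.45 and 1.78 (difference 2.70, adjusted p = 0.0112), with a Cy5 difference of 1.31 (adjusted p = 0.166), and without TatNR2B9c array 3 the ratio difference was 1.58 (adjusted p = 0.0628). HSPB1, a small heat shock protein, read −1.65, −0.75 and −1.57 against 0.94, −0.89 and −0.09, and the groups overlapped. Its ratio difference was 1.31 (adjusted p = 0.0491), and its reference signal was also higher, by 1.19 (adjusted p = 0.026). The ratio call was lost without placebo array 1 or 3 or TatNR2B9c array 1 or 3 (0.83 to 1.35, highest adjusted p = 0.265). Of 24 heat shock genes 3 were higher (12.5%) and 1 was lower (4.17%) in the ratio. HSPB1 alone passed in both (4.17%, beside 1.09% of all genes that rose).

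SLC1A2, the main glutamate transporter of astrocytes, which clears glutamate from the synapse, rose. It read 1.03, 1.65 and 2.79 on the placebo arrays and 2.79, 4.88 and 3.24 on the TatNR2B9c arrays, so that the highest placebo and the lowest TatNR2B9c array touched. The ratio difference was 1.81 ± 0.47 (adjusted p = 0.0105). It was 1.42 without placebo array 1, which ended the call (adjusted p = 0.065), and 1.19 without TatNR2B9c array 2 (adjusted p = 0.0383). In Cy5 alone it read 7.28, 7.87 and 8.76 against 10.01, 11.73 and 11.68, a difference of 3.17 without overlap (adjusted p = 0.000328). The same split ran through the series. Over both sides and times, Cy5 lay between 10.01 and 11.92 on TatNR2B9c arrays and between 7.28 and 8.76 on placebo arrays. In the left cortex at 1 h the mean log2 ratio was 2.18 under TatNR2B9c and 0.26 under placebo. At equal SD the 6 h difference was 2.72 (adjusted p = 0.0153). It was the 1 of 21 measured astrocyte markers that passed in the ratio (4.76%, beside 24.2% of all genes in either direction). At equal SD GJA1, the main connexin of astrocytes, named after its value was seen, also passed (1.89, adjusted p = 0.0449, beside 1.26 in the ratio, adjusted p = 0.0895). The list's medians were 0.30 in the ratio, 0.35 in Cy5 and 0.57 at equal SD.

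ELF5, an ETS transcription factor of epithelial cells, had the smallest adjusted p of any rising gene that is named here. It read −1.85, −1.47 and −1.87 against 0.07, −0.13 and −0.03, a difference of 1.7 ± 0.12 (adjusted p = 4.83e-07). The TatNR2B9c values lay at the level of the reference. In Cy5 the signal rose from 6.42, 6.36 and 6.25 to 7.30, 7.19 and 7.11, near the low end of the signal range, and it was well above background on 2 of 3 placebo arrays. The other genes among the 12 largest rises with a symbol were C14orf166B (2.55), FGFR4, a fibroblast growth factor receptor (2.00), C2H3orf38 (1.76) and C6orf68 (1.76). Adjusted p lay between 0.000318 and 0.0167 for them, and all but FGFR4 also passed at equal SD. FGFR4 lost the ratio call without placebo array 1 or TatNR2B9c array 1 or 3 (1.61 to 1.94, highest adjusted p = 0.0836).

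**Figure D3:**
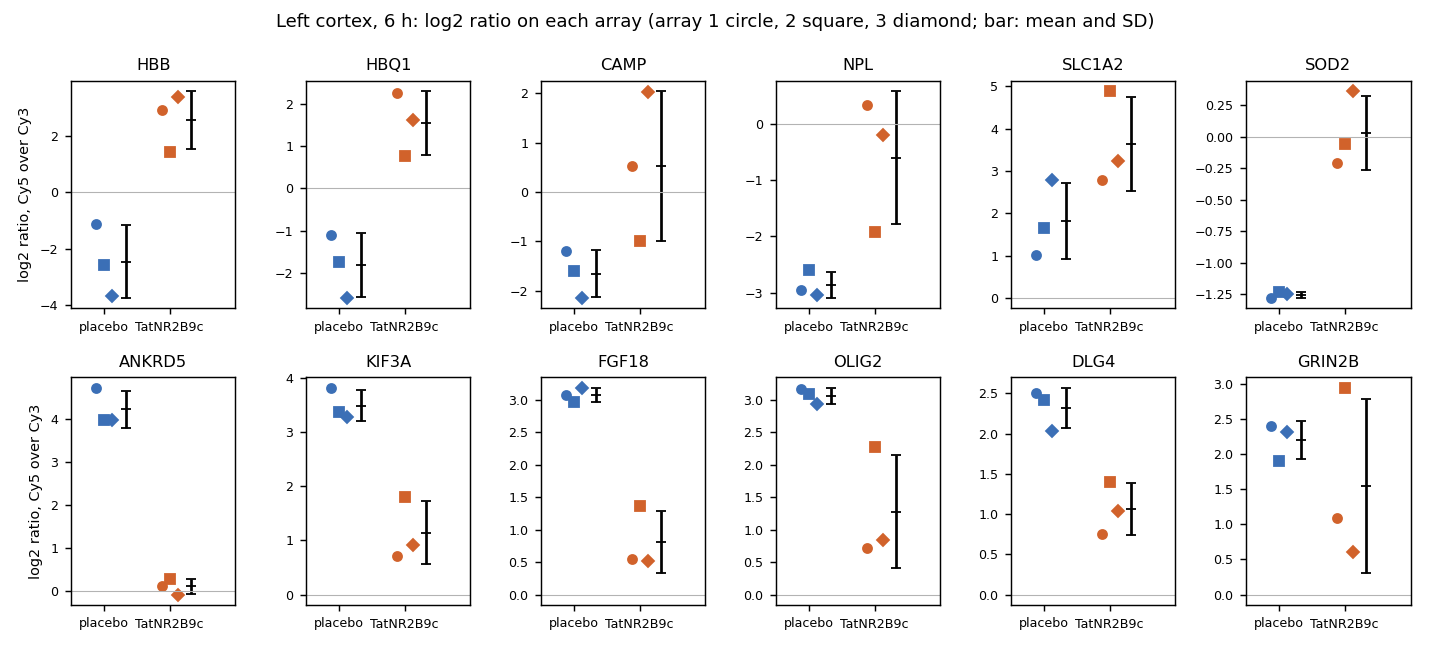
Log2 ratio of 12 genes on each left 6 h array (circle, square and diamond for arrays 1, 2 and 3), with mean and SD of each group (n = 3). In the top row the TatNR2B9c group is the higher and in the bottom row the lower. The TatNR2B9c square (array 2) lies nearest to the placebo values in HBB, HBQ1, CAMP, NPL, ANKRD5, KIF3A, FGF18, OLIG2 and DLG4. In SLC1A2 and SOD2 the circle (array 1) lies nearest.

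The largest fall was in the probe annotated to ANKRD5, a gene named for its ankyrin repeats. It read 4.72, 3.97 and 3.97 against 0.10, 0.29 and −0.09. The difference was −4.12 ± 0.47 (adjusted p = 8.75e-05), or 17.4-fold, and −3.24 in Cy5 (adjusted p = 0.000298). It passed at equal SD (−3.56, adjusted p = 0.00132), its reference signal differed by 0.01 (adjusted p = 0.992), and it was well above background on 2 of the 3 TatNR2B9c arrays. The probe is shown because its sequence is made largely of short repeats. It lies at chr10:43337929-43337988 of rheMac2, from the array file, which gives no exon or UTR position, and CCCTA is in capitals:
ANKRD5 probe: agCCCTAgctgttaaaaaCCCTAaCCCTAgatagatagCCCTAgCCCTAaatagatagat
It holds CCCTA 5 times, counted on the printed strand, and was the 1 probe of 20217 with CCCTA at least 3 times, whereas 3.75% of probes held it at least once. Whether its signal came from the ANKRD5 transcript was not tested. The right cortex gave the same picture, with a difference of −3.99 (adjusted p = 0.000379). Across the series all TatNR2B9c arrays of both sides and times lay between −0.13 and 0.31, and the placebo arrays at 6 h between 3.15 and 4.96. The placebo arrays at 1 h lay in between, from 0.25 to 2.94, the lowest of them inside the TatNR2B9c range.

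**Figure D4:**
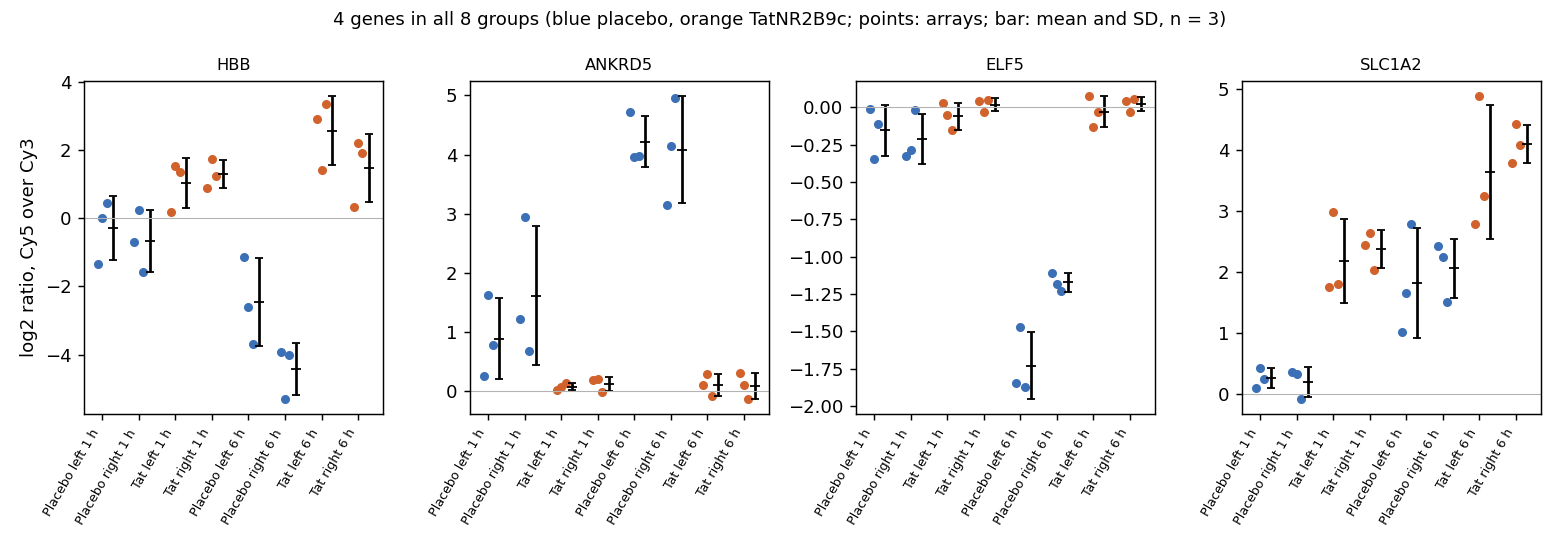
Log2 ratio of HBB, ANKRD5, ELF5 and SLC1A2 on all 24 arrays by group (points: arrays; bar: mean and SD, n = 3). ANKRD5 lies near 0 in all 4 TatNR2B9c groups and between 3.15 and 4.96 in both placebo 6 h groups, and the HBB mean is lowest in the placebo 6 h groups.

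The other genes among the 12 largest falls with a symbol had ratio differences of −2.38 to −2.11. KIF3A, a subunit of a kinesin motor, read 3.82, 3.37 and 3.27 against 0.72, 1.80 and 0.91. The groups were far apart, with TatNR2B9c array 2 the nearest to placebo. The difference was −2.34 ± 0.46 (adjusted p = 0.00212), and −1.60 in Cy5 (adjusted p = 0.0139). FGF18, a fibroblast growth factor, read 3.07, 2.96 and 3.18 against 0.55, 1.36 and 0.52 (difference −2.26, adjusted p = 0.000655). DSCAM, a cell adhesion molecule of developing neurites, read 3.78, 3.59 and 3.55 against 1.14, 2.48 and 0.96 (difference −2.11, adjusted p = 0.000658). These 3 genes passed in the equal-SD fit and did not overlap between groups. The same held for COL24A1, a fibrillar collagen (−2.34), Beta4GalNAc-T4, a glycosyltransferase (−2.33), RCV1, the calcium sensor recoverin (−2.15), and DPPA4, a nuclear protein of pluripotent cells (−2.12). KCTD1 (−2.38) and WDR17 (−2.12) fell without passing at equal SD.

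Of 21 AMPA, kainate, delta and metabotropic glutamate receptor genes measured, 10 were lower in the ratio (47.6%, beside 13.6% of all genes) and none higher, and 4 fell in both readings (19.0%, beside 3.62%). GRIK1, a kainate receptor subunit, read 4.65, 3.74 and 4.19 against 1.52, 3.26 and 1.19 (difference −2.20, adjusted p = 0.00799). GRID1, the delta-1 receptor subunit, read 4.35, 3.18 and 4.09 against 1.02, 2.87 and 1.17 (difference −2.19, adjusted p = 0.00417). GRM8, a presynaptic metabotropic receptor, read 3.77, 3.04 and 2.92 against 0.39, 2.01 and 1.02 (difference −2.10, adjusted p = 0.00343). In all of them the groups were apart and TatNR2B9c array 2 was the nearest to placebo, and their adjusted p at equal SD lay between 0.0549 and 0.117. The median of the list was −0.91 in the ratio, −0.02 in Cy5 and −0.48 at equal SD.

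The peptide's own target complex was measured at 34 genes. Of these, 10 were lower in the ratio (29.4%, beside 13.6% of all genes) and none higher. In both readings 2 fell (5.88%, beside 3.62%), and none passed at equal SD. The list's median was −0.54 in the ratio, −0.23 in Cy5 and −0.07 at equal SD, beside −0.07, −0.12 and −0.08 for all genes. DLG4, which encodes PSD-95, read 2.51, 2.41 and 2.04 against 0.76, 1.41 and 1.04. Every TatNR2B9c array lay below every placebo array. DLG4 fell by 1.25 on the log2 scale (SE 0.24, adjusted p = 0.00174), and its Cy5 difference was −1.54 (adjusted p = 0.0178). At equal SD its difference was −0.76 (adjusted p = 0.10), and in the right cortex −0.66 (adjusted p = 0.124). DLGAP2, a scaffold that binds PSD-95, read 4.95, 4.17 and 4.59 against 1.91, 3.60 and 1.91 (difference −2.10, adjusted p = 0.0107), and −1.08 at equal SD (adjusted p = 0.224). Its ratio difference was −1.82 without TatNR2B9c array 1 or 3, which ended the call (highest adjusted p = 0.0594).

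GRIN2B, the receptor subunit that the peptide mimics, read 2.40, 1.90 and 2.31 against 1.09, 2.94 and 0.60. TatNR2B9c array 2 was the highest of the 6 and arrays 1 and 3 the lowest, so the groups overlapped. The difference of −0.66 ± 0.52 did not pass (adjusted p = 0.378), and Cy5 alone gave 0.30 (adjusted p = 0.729). GRIN1, the obligatory subunit, differed by −0.89 (adjusted p = 0.159), and both of its further probes by −0.87 and −0.88. GRIN2A differed by −0.96 (adjusted p = 0.12) in the ratio and by 0.36 in Cy5 (adjusted p = 0.434). NOS1, the nitric oxide synthase held by PSD-95, read 0.92, 0.59 and 0.46 against −0.15, 0.26 and 0.14. Its ratio difference of −0.58 passed, without overlap (adjusted p = 0.0187), but its Cy5 difference of −0.45 did not pass (adjusted p = 0.253), and the ratio call was lost without array 1 of either group (−0.44 and −0.46, highest adjusted p = 0.101). NOS1AP, an adaptor that binds NOS1, NLGN1, a postsynaptic adhesion protein that binds PSD-95, and PTK2B, a kinase of the NMDA receptor complex, passed in the ratio at −1.34, −1.29 and −1.26. In Cy5 their adjusted p lay between 0.21 and 0.679. NOS1AP and NLGN1 lost the ratio call without TatNR2B9c array 1 or 3 (highest adjusted p = 0.0756 and 0.0553). PTK2B lost it without placebo array 1 or 3 or TatNR2B9c array 1, the last giving −0.76 (adjusted p = 0.136).

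Other lists of neuronal genes held lower but no higher genes in the ratio. Over all genes 13.6% were lower in the ratio and 3.62% fell in both readings. Of 44 voltage-gated sodium, calcium and potassium channel genes, 23 were lower (52.3%) and 2 fell in both (4.55%), 1 of them also at equal SD. KCNB2, a delayed rectifier potassium channel, differed by −1.94 (adjusted p = 0.00924) and SCN3B, a sodium channel beta subunit, by −1.87 (adjusted p = 0.00229), neither of which passed in Cy5. KCNB2 lost the ratio call without TatNR2B9c array 1 or 3 (−1.60 and −1.53, highest adjusted p = 0.0587). Of 28 presynaptic release genes, 8 were lower in the ratio (28.6%) and none passed in both. Their median went from −0.90 in the ratio to −0.12 in Cy5 and 0.04 at equal SD. Of 14 GABA receptor genes, 4 were lower in the ratio (28.6%) and 1 fell in both (7.14%). This was GABRB1, a beta subunit, which read 4.78, 3.85 and 4.01 against 1.72, 3.66 and 2.44 (difference −1.61, adjusted p = 0.031). It lost the call without placebo array 1 or 3 or TatNR2B9c array 1 or 3 (−1.71 to −1.16, highest adjusted p = 0.171).

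Of 26 neuron markers, 6 were lower in the ratio (23.1%, beside 13.6% of all genes). DLG4 and TUBB3 fell in both (7.69%, beside 3.62%). TUBB3, the neuronal beta tubulin, read 2.90, 2.94 and 3.20 against 1.64, 2.68 and 1.35 (difference −1.12, adjusted p = 0.046), and lost the call when any 1 array other than TatNR2B9c array 2 was left out (−1.18 to −0.85, highest adjusted p = 0.183). The median of the neuron markers changed sign with the scaling, from −0.66 in the ratio and −0.19 in Cy5 to 0.35 at equal SD. Their median log2 ratio was between 3.35 and 3.65 on placebo arrays and 2.79, 3.82 and 2.70 on the TatNR2B9c arrays, all far above the reference. Of 18 inhibitory interneuron markers, 5 were lower in the ratio (27.8%) and 2 fell in both (11.1%). LHX6, a transcription factor of interneurons from the medial ganglionic eminence, fell (3.44, 2.61 and 2.77 against 0.75, 2.23 and 1.06; difference −1.60, adjusted p = 0.00538). VIP, a neuropeptide of another interneuron class, also fell (2.30, 1.77 and 1.65 against 0.55, 0.98 and 0.82; difference −1.12, adjusted p = 0.0325). Neither passed at equal SD, and VIP lost the ratio call without placebo array 1 or 2 or TatNR2B9c array 1 or 3 (−1.19 to −0.93, highest adjusted p = 0.133).

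Oligodendrocyte markers had the lowest median of the neural, vascular, blood and meningeal cell type lists in every reading. It was −0.84 in the ratio, −0.82 in Cy5 and −0.62 at equal SD over 19 genes, of which 4 were lower in the ratio, 2 fell in both and 17 had a negative difference. OLIG2, a transcription factor of the oligodendrocyte lineage, read 3.17, 3.08 and 2.93 against 0.72, 2.27 and 0.84 (difference −1.78 ± 0.41, adjusted p = 0.00558). The groups were apart, with array 2 again nearest to placebo. NKX6-2, a transcription factor of myelinating oligodendrocytes, read 1.85, 1.57 and 1.96 against 0.57, 0.97 and 0.01 (difference −1.28, adjusted p = 0.000904) and also passed at equal SD. MBP, the myelin basic protein, differed by −1.19 in the ratio (adjusted p = 0.0154) with a Cy5 difference of −1.23 that did not pass (adjusted p = 0.28), and its further probe differed by 0.14. CNP, another myelin protein, differed by −1.30 in the ratio (adjusted p = 0.0334). MBP lost the ratio call without TatNR2B9c array 1 or 3 (−1.08 and −0.86, highest adjusted p = 0.0915), and CNP without placebo array 1 or 3 or TatNR2B9c array 1 or 3 (−1.24 to −0.81, highest adjusted p = 0.189). In the right cortex the median of this list was −0.02.

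**Figure D5:**
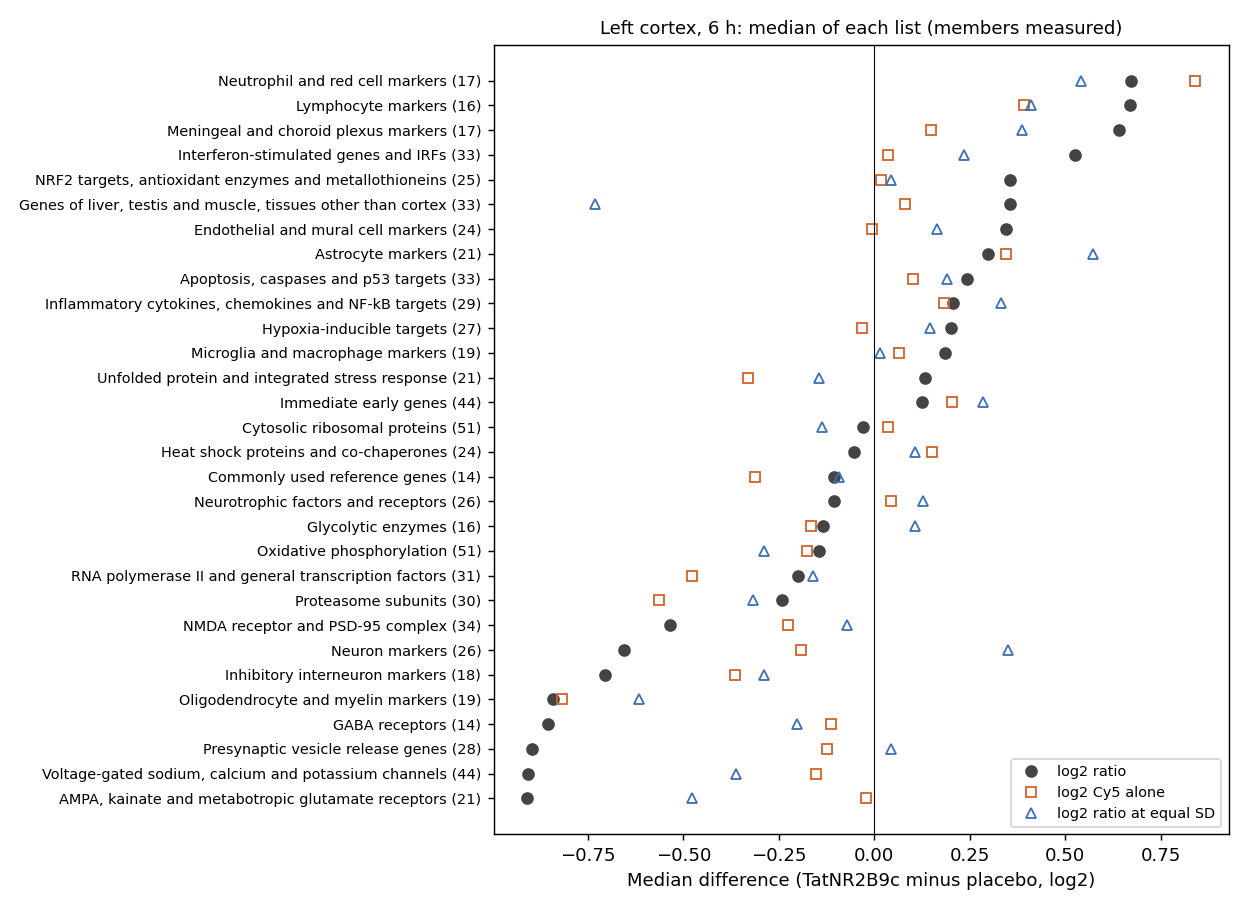
Median TatNR2B9c minus placebo difference of each of 30 gene lists (members measured in brackets) in the log2 ratio (filled circles), in log2 Cy5 alone (squares) and in the log2 ratio at equal SD (triangles). Neutrophil and red cell markers lie at 0.54 to 0.84 and oligodendrocyte markers at −0.84 to −0.62 in all 3, whereas the neuron markers span 0.

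Of 16 lymphocyte markers, 8 were higher (50%, beside 10.6% of all genes) and 2 lower (12.5%, beside 13.6%) in the ratio, and none passed in both. Their median was 0.67 in the ratio, 0.39 in Cy5 and 0.41 at equal SD. CD27, a co-stimulatory receptor of T and B cells, was higher by 1.57 (adjusted p = 0.00145) with a Cy5 difference of 0.68 (adjusted p = 0.0745). Of 17 meningeal and choroid plexus markers 4 were higher in the ratio (23.5%), and of 19 microglia and macrophage markers 2 were higher, none of them in both readings. Of 24 endothelial and mural cell markers, 3 were higher (12.5%) and 1 lower (4.17%) in the ratio. ABCC9, a subunit of a potassium channel of mural cells, rose in both (−0.17, −0.19 and −0.30 against 0.57, 0.44 and 0.27; difference 0.65, adjusted p = 0.00155) and at equal SD. Of 33 genes of liver, testis and muscle 3 were higher in the ratio (9.09%) and none passed in both. Their median was 0.36 in the ratio and −0.73 at equal SD.

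In metabolic and housekeeping lists 0% to 14.3% of the members were lower in the ratio, beside 13.6% of all genes, and none was higher. None of 16 glycolytic enzymes passed in the ratio. Of 51 oxidative phosphorylation genes 5 were lower, and ATP5L, a subunit of ATP synthase, fell by 0.80 on the log2 scale (adjusted p = 0.00958), a call lost without array 1 of either group (−0.63 and −0.70, highest adjusted p = 0.0605). Of 51 cytosolic ribosomal proteins 4 were lower, and RPL10 fell by 1.24 on the log2 scale (adjusted p = 0.00136). Of 30 proteasome subunits and assembly factors 3 were lower. PSMD5, a proteasome assembly chaperone, read 0.93, 0.72 and 0.92 against −0.01, 0.28 and 0.10 (difference −0.73, adjusted p = 0.000548), without overlap. The median of that list was −0.24 in the ratio and −0.56 in Cy5, beside −0.07 and −0.12 for all genes. Of 31 RNA polymerase II and general transcription factor genes 2 were lower, and POLR2H, a polymerase subunit, fell by 0.70 on the log2 scale (adjusted p = 0.00919). Without TatNR2B9c array 1 the POLR2H difference was −0.48 (adjusted p = 0.0618), and the median of its list was −0.20 in the ratio and −0.48 in Cy5. Of 14 commonly used reference genes 2 were lower. GUSB, the lysosomal beta-glucuronidase, read 1.31, 1.26 and 1.02 against −0.12, 0.53 and 0.17 (difference −1.0, adjusted p = 0.000911), and it passed in Cy5 and at equal SD as RPL10, PSMD5 and POLR2H did.

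Immediate early, stress response and neurotrophic lists held calls of both signs in the ratio, where 10.6% of all genes were higher and 13.6% lower. Of 44 immediate early genes 3 were higher (6.82%) and 2 lower (4.55%) in the ratio, and none passed in both. Of 21 genes of the unfolded protein and integrated stress response, 2 were higher and 2 lower (9.52% each). HSPA5, the main chaperone of the endoplasmic reticulum, differed by −0.74 in the ratio (adjusted p = 0.00821), with a Cy5 difference of −0.60 (adjusted p = 0.0643), and was well above background on 1 of 3 TatNR2B9c arrays. Without placebo array 2 its ratio difference was −0.45 (adjusted p = 0.036). Of 26 neurotrophic factors and receptors 5 were higher (19.2%) and 2 lower (7.69%), and 1 rose in both (3.85%, beside 1.09% of all genes). This was NGFR, the p75 neurotrophin receptor, which rose by 0.84 (adjusted p = 0.0462). The call was lost when any 1 array other than TatNR2B9c array 2 was left out (0.56 to 0.86, highest adjusted p = 0.240).

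Without any call, the groups were compared by overlap. The ratios of the 3 TatNR2B9c arrays lay all above or all below those of the 3 placebo arrays for 33.5% of genes, 15.5% above and 18% below. Of the genes that passed in both readings, 155 of the 172 that rose and 531 of the 570 that fell were apart in the ratio. In the ratio and in Cy5 alike 653 of the 742 were apart, for which no share over all genes was counted. The choice of these genes by the same arrays favours such counts.

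The ischemic right cortex, read from the titles as that of the same animals, at the same time and from the same campaigns, gave the same sign for most of the genes that passed on the left. There 57 genes were higher and 84 lower in both readings (0.362% and 0.533% of 15758 genes). Of the 172 genes that rose on the left, 170 were higher in the right ratio and 30 (17.4%) passed in both readings there. Of the 570 that fell, 558 were lower and 50 (8.77%) passed. Over all genes 51.8% were higher and 48.2% lower on the right. HBB differed by 5.89 on the right (adjusted p = 0.000379), SLC1A2 by 2.04 (adjusted p = 0.0192), SOD2 by 1.02 (adjusted p = 0.0119) and KIF3A by −2.03 (adjusted p = 0.0177). The test of the difference between sides, right minus left, passed limma's threshold for 0 genes, with 672 at an unadjusted p under 0.05. The TatNR2B9c arrays of both sides shared scan days, as did placebo left array 2 with the right placebo arrays, but not placebo left arrays 1 and 3. Same-numbered left and right deviations correlated at −0.20, −0.11 and −0.09 in placebo and at −0.21, 0.39 and 0.52 under TatNR2B9c. With scan days shared in part, and animals that the titles give as shared, the right side is no independent repeat of the left.

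The left cortex at 1 h allowed a comparison over time, again across campaigns, since the placebo 1 h arrays were read with yet another software version. The treatment difference at 6 h departed from that at 1 h for 14.1% of genes in the ratio, 813 higher and 1414 lower at 6 h. With each array only centred on its median the majority turned, to 2133 higher and 1910 lower. Leaving out 1 array moved the 2227 to between 473 (without placebo 1 h array 1) and 4721 (without TatNR2B9c 6 h array 2). In Cy5 alone the same test passed for 140 genes (0.888%), 24 higher and 116 lower at 6 h. At 1 h the reference channel alone, which carries no treatment, differed between the left groups for 4348 genes (27.6%). In the ratio HBB differed by 1.33 at 1 h (adjusted p = 0.554) and by 5.03 at 6 h, and the test of that change passed (3.70, adjusted p = 0.025).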

How the data were processed

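Cortical RNA (Cy5) and a common rhesus reference RNA (Cy3) were hybridised to 2-colour Agilent 60-base arrays. Per the file headers, each deposited scanner file holds the mean and local background intensity of 41851 spots in each channel, flags (scores of 0 or 1) for signal above background, and the log10 ratio of processed signals, made with Feature Extraction 9.5.3.1, 10.5.1.1 or 10.7.3.1. The submitters' processing notes name 10.7.3.1. The deposited series matrix holds the same log10 ratios to within 0.005.

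Mean and background intensities were corrected with normexp (offset 50), turned into log2 ratios, normalised by loess within each array and averaged over spots of a probe (limma 3.58.1, R 4.3.3). Probes well above background in Cy5 on all arrays of at least 1 group were kept (17226 of 20217), and the brightest probe stood for each gene (15759, of which 13829 had a symbol in the files; 1 had no value in this comparison). Groups were compared with lmFit and eBayes over 24 arrays and 8 groups, with Benjamini-Hochberg adjusted p under 0.05. Cy5 and Cy3 alone were quantile-normalised and fitted the same way. The labels give separate animals as replicates. The code was tested on simulated data.

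Named genes were the 12 largest ratio differences with a symbol in each direction among genes passing in ratio and Cy5, up to 4 passing members of each of 30 lists, GRIN2B, DLG4, GRIN1, GRIN2A and NOS1, and the 5 of smallest adjusted p in each interaction. The comparison, the lists and the rule were chosen with earlier results of these data known. The equal-SD scaling and the fits without the placebo 1 h arrays were added after the data were seen. Other alternatives were background correction, normalisation, probe filter, array weights, slide, scan day and replicate blocks, and leaving out each array. Genes carry the names given in the scanner files, and the number of arrays limits the precision. Figures were drawn with matplotlib 3.10.9.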

Additional observations from a re-analysis of the deposited data

Results flagged for a closer look

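In the left cortex the treatment difference at 6 h departed from that at 1 h for 2227 genes in limma's interaction test, 813 of them higher and 1414 lower at 6 h. With median centring of each array the majority turned, to 2133 higher and 1910 lower. Both counts are of the ratio, and in Cy5 alone the same test passed for 140 genes. The placebo 1 h, placebo 6 h and TatNR2B9c arrays came from separate campaigns, and time and campaign cannot be told apart within placebo. The 5 named genes of smallest adjusted p follow. ELF5 changed by 1.60 from 1 h to 6 h (adjusted p = 0.000345), with a mean log2 ratio in placebo of −0.15 at 1 h and −1.73 at 6 h and TatNR2B9c arrays near 0 at both times. PSPH, the last enzyme of serine synthesis, changed by 1.99 (adjusted p = 0.0028), from a treatment difference of −0.69 to 1.30. C22orf1 changed by −3.19 (adjusted p = 0.00339), from 1.58 to −1.60, with placebo means of −2.14 at 1 h and 1.63 at 6 h. PGGT1B, a subunit of a protein prenyltransferase, changed by 1.11 (adjusted p = 0.00339), from −0.02 to 1.09. EDAR, the ectodysplasin receptor, changed by −2.10 (adjusted p = 0.00346), from 1.57 to −0.53. Cy5 alone gave EDAR a treatment difference of 1.96 at 6 h and 2.93 at 1 h, and gave PSPH −0.77 at 6 h.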

How the results depend on the processing

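The cause was not tested for any change below, apart from what an alternative's own construction shows. With limma's between-array scaling to equal spread 0 genes passed in the ratio, in both readings or over time (497 in the ratio at an unadjusted p under 0.05). The processed signals gave 28 genes in the ratio, 5 in both and 148 over time, and the series matrix 29. With probes well above background on all 6 arrays, and so fewer genes tested, the counts were 1399, 433 and 1035. At equal SD they were 660, 207 and 43. Array weights gave 346 in both. The 6 arrays alone gave 3 in the ratio (4372 unadjusted), 1 in Cy5, 258 in Cy3, and 0 in both readings (788) and at equal SD as well (499). Median scaling of each channel gave 9798 in Cy5, 5408 in Cy3 and 2033 in both. Without the 6 placebo 1 h arrays these were 1391, 2892 and 483. Over time, no background subtraction gave 3673 and median centring 4043 (2133 higher and 1910 lower, the opposite majority). Leaving out 1 array gave 1998 to 5492 genes in the ratio, 1056 to 5514 in Cy5, 88 to 809 in Cy3, 237 to 1981 in both, 25 to 909 at equal SD as well, 0 to 21 between sides and 473 to 4721 over time. The 21 came without TatNR2B9c left array 2. The difference in probes above background ranged from −22.1 to 0.23 points.

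The replicate block, the label number as a fixed term, gave 3999 genes in the ratio, 2475 in Cy5, 319 in Cy3, 739 in both and 2583 over time, and the animal as a random replicate block 0 between sides. It moved no count by over 1.5 times. The numbers did not pair the treatments, since same-numbered deviations correlated at −0.09, −0.42 and −0.24, and 0 arrays correlated best with their own number. Slide and scan day as random blocks left 717 and 497 in both.

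Signs turned in 11 of the values recomputed for 67 genes. Cy5 alone gave GRIN2B 0.30, GRIN2A 0.36, PSPH −0.77 and EDAR 1.96. Between-array scaling gave GABRB1 0.14, GRIN2B 0.038, GRIN1 0.093, GRIN2A 0.71 and EDAR 0.13, equal SD gave GRIN2A 0.32, and median centring gave HSPB1 −0.26. Of the others, 1044 kept direction and side of the threshold, 397 lost the threshold and 7 gained it. The 7 gains were 1 for GRIN2B and 2 each for GRIN1, GRIN2A and EDAR, all lower under TatNR2B9c as in the main fit. Of the list medians, 574 moved by less than the spread between replicates and 86 by more.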

Other observations

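One probe without a gene name in the files, A_01_P015958, was the single gene called in Cy5 on the 6 arrays alone, and it was picked for its value. Its Cy5 signal was 7.03, 7.92 and 6.54 on the placebo arrays and 14.7, 14.7 and 13.7 on the TatNR2B9c arrays. Its reference signal in Cy3 moved the same way, from 6.89, 7.80 and 6.82 to 13.1, 13.3 and 12.8. The difference was 7.20 in Cy5 and 5.92 in Cy3, and the ratio differed by 0.89 without passing limma's test (adjusted p = 0.213). The reference RNA carries the same label in both groups.

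On the 6 arrays alone the ratio gave ANKRD5 (−4.12, adjusted p = 0.00508), RASGRP4 (−2.63, adjusted p = 0.0482) and RBM7 (1.95, adjusted p = 0.0482). RASGRP4 and RBM7 were chosen for naming after their values were seen.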
